A study of Mus musculus with 4 samples.

Results

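Presynaptic vesicle release genes encode the proteins that fill, dock, fuse and recover synaptic vesicles. The set described here held 35 genes chosen by symbol, all of them found among the 40630 genes of the deposited table, and 34 passed the filter of a mean of at least 1 TPM. TPM (transcripts per 1000000) is a level per transcript length, so levels can be set side by side between genes. The tissue was mouse cortex of the C57BL/6 background, dissected at E13.5 and profiled as total RNA. One group was labelled Upf2fl/fl with Emx1-Cre+ (conditional knockout, cKO, replicates 4 and 5) and the other Upf2fl/+ with Emx1-Cre- (controls, replicates 8 and 9). All 4 libraries carried at least 1 floxed Upf2 allele, and Cre and the count of floxed alleles differed together between the groups. Emx1-Cre acts in the dorsal telencephalon, so cells of ventral, vascular or meningeal origin keep Upf2, the adaptor of nonsense-mediated mRNA decay (NMD). Nothing in the labels says that each library came from a separate embryo, so p-values measure only the spread between these libraries, which may be technical.

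A synaptic vesicle carries synapsins, synaptophysin, SV2 proteins and a transporter that loads the transmitter. Rab3 and the active zone scaffolds bring it to the release site, SNARE proteins drive fusion, complexins and synaptotagmins tie fusion to calcium, and dynamin with its partners takes the membrane back. In the embryonic cortex these genes are switched on as progenitors give rise to neurons, before most synapses form.

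Depth, recovered from the deposited values, was 33537843 to 41680052 reads per library. Upf2 itself had 27.8 and 42.2 TPM under the cKO label against 23.7 and 41.3 TPM in the controls, so the level of the whole gene did not separate the groups. The labels do not say which exons are floxed, and a gene-level value cannot check their loss, and the group is called cKO-labelled throughout. The cortical neuron marker Neurod6 was present in every library, with 292 and 472 TPM under the cKO label (replicates 4 and 5, the order used throughout) against 357 and 610 TPM in the controls (replicates 8 and 9). Control replicate 9 stood apart by base composition. Across all tested genes with a GC value, the log2 difference of control 8 minus control 9 had a Spearman rho of 0.78 with GC content (n = 14959 genes, which share libraries). That difference alone does not say which control stood apart. The log2 difference of cKO-labelled minus control libraries had a rho of 0.55 with GC content, and of 0.20 without control replicate 9.

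Of the 34 tested presynaptic genes 9 rose in the cKO-labelled libraries and none fell (limma, Benjamini-Hochberg adjusted p under 0.05 over 15107 genes). That is 26.5% of them, where 2.90% of all tested genes were called higher and 5.24% lower. The 9 were the vesicle genes Syn1, Syn2, Syp and Sv2a, the calcium sensor Syt5, the fusion clamp Cplx1, the Rab3 effector Rph3a, the scaffold Bsn and the membrane-scission enzyme Dnm1. With the 9, 19 genes had an unadjusted p under 0.05, all of them higher under the cKO label, where 8.2% of all tested genes were. Each fold change is the group difference on the log2(TPM + 1) scale, positive where the cKO label is higher, and understates the change of low genes. The median over the 34 genes was 0.83, against -0.16 over all tested genes, and 30 of the 34 values were positive, against 40.7% of all tested genes. Median-of-ratios scaling moved the median over all genes to -0.01 and that over the 34 genes to 0.96. In whole tissue, more cells of a type and more RNA per cell cannot be told apart.

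Both cKO-labelled libraries lay above both controls for 25 of the 35 genes (24 of the 34 tested, 70.6%), and 23.5% of all tested genes had that order. Both lay below the controls for Slc17a6 and Vamp1, where 34.1% of all tested genes had that order, and 8 genes overlapped. Within the controls, replicate 8 was above replicate 9 for 23 of the 35 genes and for all 9 genes called, against 42.1% of all tested genes. In each of the 9 the fold change was larger than the log2 gap between the 2 controls, and the lowest cKO-labelled library stood 0.52 to 1.14 above the highest control on the log2 scale. The median SD within the controls was 0.37, and within the cKO-labelled pair 0.12. The standard errors, 0.34 to 0.39, came from a spread pooled over genes, not from the replicates of the gene itself.

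The calls depended on which libraries entered. None of the 34 genes passed in limma without cKO-labelled replicate 4 (1 had an unadjusted p under 0.05; 0.119% of all genes were called higher and 1.05% lower) or without replicate 5 (3 unadjusted; 0.285% and 1.50%). A lone library of a group is assumed there to vary like the other group. Without control replicate 9, the library that stood apart, 9 genes again passed (2.56% of all genes called higher, 3.30% lower), of which 6 were among the first 9: Syn1, Sv2a, Syt5, Cplx1, Rph3a and Dnm1. Syt1, Syt4 and Rab3c took the places of Syn2, Syp and Bsn, and the median of the 34 genes was 0.57. Without control replicate 8, 20 genes rose and 1 fell, with 18.7% and 30.1% of all genes called. With pseudocounts of 0.1 and 0.5, a minimum of 5 TPM, no intensity trend and robust moderation 9 genes rose each time, with 2.89%, 2.93%, 2.78%, 2.95% and 2.78% of all genes called higher and 5.31%, 5.34%, 2.90%, 5.34% and 5.34% lower. Median-of-ratios scaling gave 17 genes higher (5.11% of all genes, and 4.61% lower), quantile normalization 14 (4.73% and 3.54%), and no filter on low values 0 (0.0153% and 0.666%; 18 of the 35 genes with an unadjusted p under 0.05).

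**Figure D1:**
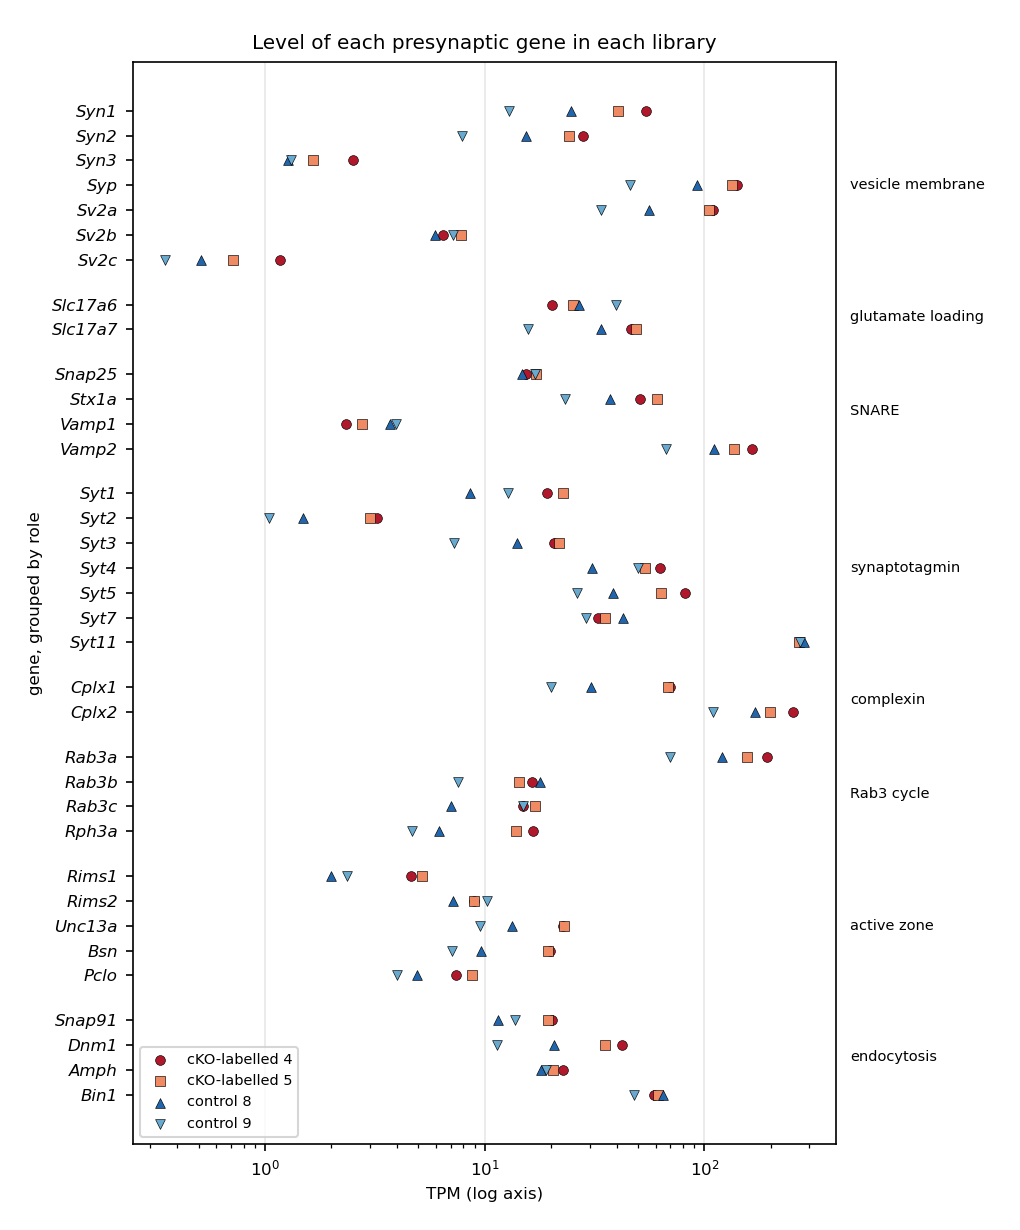
TPM of each of the 35 presynaptic genes in each library (log axis), 1 point per library, grouped by the role of the protein. For 25 genes both cKO-labelled points lie to the right of both control points, and Slc17a6 and Vamp1 have the opposite order.

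The promoters of the 4 called genes with the smallest p are shown because these genes rose together. Each is the stretch before the RefSeq start (GRCm38.p6) that no GENCODE M21 exon of the gene covers. Capitals mark a GC box (GGGCGG on either strand) in Cplx1 and Sv2a, and in Syn1 the left part of the RE1 element (TTCAGCACC), which the repressor REST recognises, followed by a cAMP response element (TGACGTCA).
Cplx1 (chr5:108550028-108550277, minus strand): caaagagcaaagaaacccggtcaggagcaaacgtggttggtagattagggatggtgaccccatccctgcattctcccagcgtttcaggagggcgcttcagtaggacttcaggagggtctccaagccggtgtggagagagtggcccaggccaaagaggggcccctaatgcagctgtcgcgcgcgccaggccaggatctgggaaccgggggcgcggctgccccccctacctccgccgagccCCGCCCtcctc
Sv2a (chr3:96180977-96181150, plus strand): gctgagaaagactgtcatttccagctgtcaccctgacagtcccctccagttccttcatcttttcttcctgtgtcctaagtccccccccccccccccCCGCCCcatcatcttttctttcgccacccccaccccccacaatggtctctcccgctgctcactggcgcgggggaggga
Syn1 (chrX:20921005-20921168, minus strand): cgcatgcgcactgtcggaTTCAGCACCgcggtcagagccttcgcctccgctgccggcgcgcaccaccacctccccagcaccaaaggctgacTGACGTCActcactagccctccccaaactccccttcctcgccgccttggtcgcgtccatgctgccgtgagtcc
Dnm1 (chr2:32353339-32353579, minus strand): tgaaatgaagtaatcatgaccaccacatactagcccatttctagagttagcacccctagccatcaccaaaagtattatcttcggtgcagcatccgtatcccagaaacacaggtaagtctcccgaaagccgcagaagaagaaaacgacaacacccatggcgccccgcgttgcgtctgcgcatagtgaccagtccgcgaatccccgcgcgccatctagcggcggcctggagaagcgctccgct

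The RE1 stretch of Syn1 begins 232 bases before the RefSeq start and its cAMP response element 159 bases before it. In all, 27 of the 35 genes matched the RefSeq promoter table, with 37 windows of 300 bases (250 before the start and 50 after). TTCAGCACC occurred on either strand in 2 of the 37 windows (Syn1 and Unc13a) and in 0.371% of all 32851 windows. TGACGTCA occurred in 1 of the 37, against 1.79% of all windows, and GGACAG, the right part of RE1, in 29.7% against 22.2%. GGGCGG was found in 62.2% of the windows and 35.7% of all windows, and TATAAA in 8.11% against 13.6%. The windows had a median GC content of 60.0% and 17 CpG sites, against 52.7% and 7 over all windows. None of the motifs searched overlaps another in the stretches shown, and a match is a description of the letters only. Rest itself had 11.9 and 13.1 TPM under the cKO label against 19.3 and 25.9 TPM, and it did not pass (-0.79, limma adjusted p = 0.187). Of the 13 tested genes of REST and its corepressors none passed in limma, and 2 had an unadjusted p under 0.05.

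Vesicle membrane proteins held 4 of the 9 genes called. Syn1 (chrX:20860511-20921004, GRCm38), a synapsin that tethers vesicles to one another and to actin, had 54.1 and 40.3 TPM under the cKO label against 24.8 and 12.9 TPM in the controls. It rose by 1.33 ± 0.36 (SE) on the log2 scale (limma adjusted p = 0.00607). Syn2 (chr6:115134902-115282006), its paralog, had 28.1 and 24.2 TPM against 15.4 and 7.87 TPM (1.16 ± 0.38 (SE), limma adjusted p = 0.032). In both synapsins the controls differed from each other by 0.89 on the log2 scale, and no library of one group reached the other group. Syn3, the synapsin known from developing neurons, was low, at 2.52 and 1.65 TPM against 1.28 and 1.31 TPM, and did not pass (0.41, limma adjusted p = 0.455). Its exons share 14.1% of their bases with Timp3 on the opposite strand, and since the strand setting of the counting is not given, their reads may not be separate.

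Syp (chrX:7638471-7653256), which encodes synaptophysin, the abundant membrane protein that binds synaptobrevin, had 139.9 and 132.9 TPM against 92.6 and 46.0 TPM. It rose by 1.05 ± 0.34 (SE) (limma adjusted p = 0.0341), with a gap of 0.99 between the controls. Sv2a (chr3:96181151-96195521), a vesicle glycoprotein that primes vesicles for release, had 108.8 and 104.5 TPM against 56.0 and 33.7 TPM and rose by 1.28 ± 0.35 (SE) (limma adjusted p = 0.00594). The cKO-labelled pair agreed closely in both genes, and the spread lay in the controls. Sv2b overlapped between the groups, at 6.45 and 7.77 TPM against 5.95 and 7.18 TPM. Sv2c fell under the filter and was not tested; it rested on 116 and 77 reads against 63 and 38 reads. Without cKO-labelled replicate 4 the fold changes of Syn1, Syn2, Syp and Sv2a were 1.12, 1.06, 1.01 and 1.25, and without replicate 5 they were 1.54, 1.27, 1.09 and 1.30, none of them called. Without control replicate 9, Syn1 and Sv2a stayed called at 0.89 and 0.92, while Syn2 was at 0.72 (limma adjusted p = 0.1) and Syp at 0.55 (limma adjusted p = 0.0673).

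The vesicular glutamate transporters stood on opposite sides of the controls. Slc17a7 (VGLUT1), the transporter typical of mature cortical excitatory neurons, had 46.6 and 48.6 TPM against 33.8 and 15.7 TPM (1.01 ± 0.36 (SE), limma adjusted p = 0.0573). Slc17a6 (VGLUT2), typical of thalamic and of immature cortical neurons, had 20.1 and 25.3 TPM against 26.8 and 39.5 TPM (-0.51 ± 0.36 (SE), limma adjusted p = 0.394). Neither passed. The level of Slc17a7 over that of Slc17a6 was 2.31 and 1.92 in the cKO-labelled libraries and 1.26 and 0.397 in controls, groups that did not overlap but whose control values differed widely. An exact permutation test of 2 against 2 cannot go below p = 0.333, so the ratio was not tested. The transcripts of Slc17a7 had a GC content of 56.6% and those of Slc17a6 45.2%, and after removal of the GC trend the fold changes were 0.78 (limma adjusted p = 0.0448) and -0.07. Without control replicate 8 Slc17a6 passed as lower (-0.78, limma adjusted p = 0.0194), and Slc17a7 was at 1.54 (limma adjusted p = 0.00132).

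None of the 4 SNARE genes passed in limma, and 2 had an unadjusted p under 0.05 (0.0115 for Stx1a and 0.0217 for Vamp2). Stx1a, the plasma membrane syntaxin, had 51.1 and 60.7 TPM against 37.2 and 23.3 TPM (0.90 ± 0.35 (SE), limma adjusted p = 0.0971). Vamp2, the vesicle SNARE synaptobrevin 2, had 163.8 and 136.9 TPM against 110.7 and 66.99 TPM (0.79 ± 0.34 (SE), limma adjusted p = 0.14). Both genes had all cKO-labelled values above all controls. Snap25, the third SNARE of the fusion complex, did not separate the groups, at 15.4 and 17.2 TPM against 14.7 and 16.9 TPM (0.04 ± 0.38 (SE)). Vamp1, the synaptobrevin of spinal cord and brainstem neurons, was low and stood under the controls, at 2.33 and 2.77 TPM against 3.72 and 3.96 TPM (-0.45 ± 0.36 (SE), limma adjusted p = 0.45). Vamp2 over Vamp1 was 70.4 and 49.4 in the cKO-labelled libraries and 29.8 and 16.9 in controls. That ratio was not tested, rests on the low level of Vamp1, and sets transcripts of 56.9% GC content against 49.9%.

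Among the 7 synaptotagmins 1 rose. Syt5 (chr7:4539765-4547541), a calcium-binding vesicle protein, had 81.6 and 63.5 TPM against 38.2 and 26.2 TPM (1.16 ± 0.35 (SE), limma adjusted p = 0.0181). It was at 0.98 and 1.34 without cKO-labelled replicate 4 or 5, both uncalled, and at 0.90 without control replicate 9 (limma adjusted p = 0.0295). Syt1, the calcium sensor of fast synchronous release, had 19.2 and 22.6 TPM against 8.59 and 12.7 TPM (0.93 ± 0.38 (SE), limma adjusted p = 0.115). The groups did not overlap, and here control replicate 9 was the higher control. Syt1 passed without control replicate 9 (1.19, limma adjusted p = 0.0259) and without control replicate 8 (0.67, limma adjusted p = 0.0461). Syt4, which lacks calcium binding in its first C2 domain and is expressed early in neurons, had 62.7 and 53.5 TPM against 30.9 and 50.03 TPM (0.55 ± 0.35 (SE), limma adjusted p = 0.338).

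Syt2, the fast sensor of hindbrain synapses and of parvalbumin interneurons, was at 3.25 and 3.0 TPM against 1.49 and 1.05 TPM (0.87, limma adjusted p = 0.101). Syt3, a high-affinity calcium sensor, was at 20.7 and 21.8 TPM against 13.99 and 7.26 TPM (1.00, limma adjusted p = 0.0857). Both had the cKO-labelled libraries above the controls. Syt11, which does not bind calcium, was the most abundant of the 35 genes and stood at 273.3 and 268.3 TPM against 284.8 and 272.0 TPM (-0.04 ± 0.35 (SE)). Syt7, the slow sensor of asynchronous release, overlapped between the groups, at 33.0 and 35.3 TPM against 42.5 and 28.9 TPM. Both lay close enough to 0 that the shift of all genes under median-of-ratios scaling turned their sign (0.13 for Syt11 and 0.12 for Syt7), so no direction is given.

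The complexins are small proteins that bind the assembled SNARE complex, and 1 of the 2 rose. Cplx1 (chr5:108518554-108550024) had 69.8 and 68.5 TPM against 30.6 and 19.99 TPM and rose by 1.45 ± 0.35 (SE) (limma adjusted p = 0.00158). Its lowest cKO-labelled library was 1.14 above its highest control on the log2 scale. Cplx2 was the more abundant complexin, at 253.9 and 198.8 TPM against 170.1 and 109.2 TPM, and did not pass (0.72 ± 0.35 (SE), limma adjusted p = 0.192). Cplx2 over Cplx1 was 3.64 and 2.90 in the cKO-labelled libraries and 5.57 and 5.46 in controls. The controls were close to each other and the groups did not overlap, but that ratio was not tested. Cplx1 was at 1.43 and 1.46 without cKO-labelled replicate 4 or 5 (limma adjusted p = 0.991 and 0.582), at 1.74 without control replicate 8 (0.000991) and at 1.15 without control replicate 9 (0.0055).

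In the Rab3 group, Rph3a rose. Rph3a (chr5:120940499-121010092) encodes rabphilin, an effector that binds Rab3 on the vesicle, and had 16.5 and 13.9 TPM against 6.23 and 4.69 TPM (1.34 ± 0.39 (SE), limma adjusted p = 0.0126). Rab3a, the main vesicle GTPase of this family, had 193.3 and 155.8 TPM against 120.3 and 69.6 TPM (0.92 ± 0.34 (SE), limma adjusted p = 0.078). Its groups did not overlap. Rab3b (16.3 and 14.4 TPM against 17.9 and 7.60 TPM) and Rab3c (14.9 and 16.9 TPM against 7.06 and 14.9 TPM) overlapped between the groups and differed more between the controls than between the groups. Rab3b turned to -0.21 without control replicate 9, where Rab3c was at 1.07 (limma adjusted p = 0.0491). Rph3a was at 1.22 and 1.45 without cKO-labelled replicate 4 or 5, both uncalled, and at 1.16 without control replicate 9 (limma adjusted p = 0.041).

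Of the 5 active zone genes 1 rose. Bsn (chr9:108096022-108190384), the giant scaffold Bassoon, had 19.9 and 19.4 TPM against 9.65 and 7.11 TPM (1.15 ± 0.39 (SE), limma adjusted p = 0.0387). Unc13a, the priming factor Munc13-1, had 22.8 and 22.9 TPM against 13.3 and 9.54 TPM (0.96 ± 0.38 (SE), limma adjusted p = 0.0993). Its exons share 3.9% of their bases with the more abundant Colgalt1 (mean 51.96 TPM) on the opposite strand, so their reads may not be separate. Rims1, which links Rab3 to calcium channels, had 4.62 and 5.19 TPM against 1.99 and 2.37 TPM (0.90 ± 0.37 (SE), limma adjusted p = 0.113). In Bsn, Unc13a and Rims1 the cKO-labelled pair lay above the controls. Pclo, the scaffold Piccolo related to Bassoon, had the same order, at 7.40 and 8.76 TPM against 4.94 and 3.98 TPM (0.74, limma adjusted p = 0.233). Rims2 did not separate the groups, at 8.91 and 8.94 TPM against 7.16 and 10.3 TPM (0.05 ± 0.39 (SE)). Rims1 over Rims2 was 0.519 and 0.581 in the cKO-labelled libraries and 0.278 and 0.230 in controls, a ratio that was not tested. Bsn was at 1.13 and 1.17 without cKO-labelled replicate 4 or 5 and at 0.96 without control replicate 9 (limma adjusted p = 0.0513), all uncalled.

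Among the 4 genes of membrane retrieval, Dnm1 (chr2:32308471-32353338), the neuronal dynamin that cuts endocytic vesicles free, had 42.0 and 35.4 TPM against 20.7 and 11.3 TPM and rose by 1.28 ± 0.37 (SE) (limma adjusted p = 0.0112). Its fold change was 1.16 and 1.40 without cKO-labelled replicate 4 or 5, both uncalled, and 0.87 without control replicate 9 (limma adjusted p = 0.039). Snap91 (AP180), a clathrin adaptor, had 20.2 and 19.5 TPM against 11.5 and 13.7 TPM (0.62, limma adjusted p = 0.31), with no overlap. Amph, amphiphysin, which recruits dynamin, was at 22.8 and 20.45 TPM against 18.0 and 19.0 TPM (0.21, limma adjusted p = 0.752). Bin1, a relative of amphiphysin also used outside neurons, overlapped between the groups (59.0 and 61.5 TPM against 64.8 and 48.0 TPM). Its direction turned after GC removal, to -0.15.

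**Figure D2:**
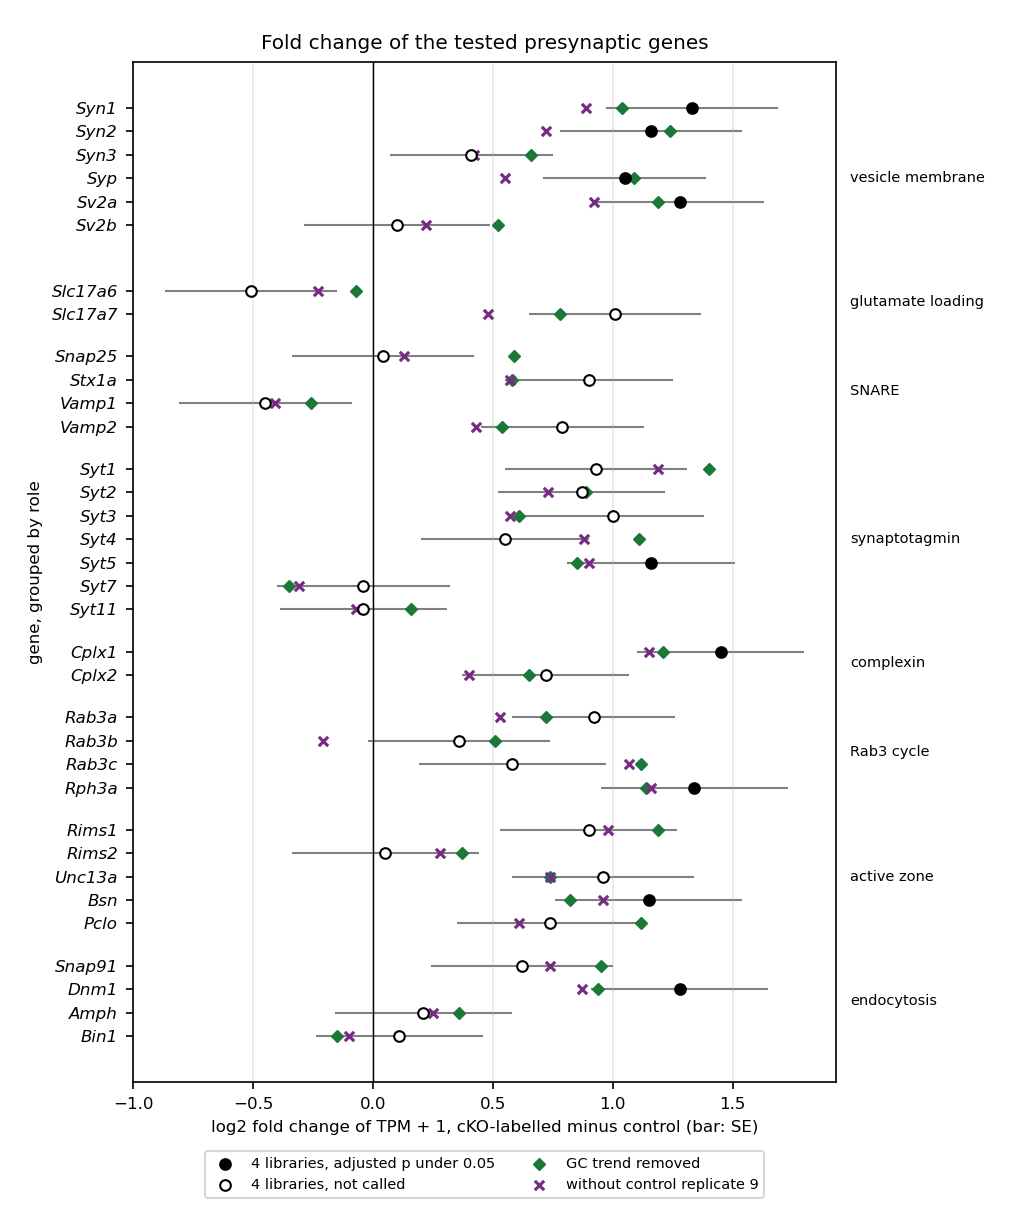
Log2 fold change of TPM + 1, cKO-labelled minus control, for the 34 tested genes (circles, with bars of 1 SE from the pooled spread; filled circles passed), with the value after GC removal (diamonds) and without control replicate 9 (crosses). The 9 filled circles lie between 1.05 and 1.45, and most crosses lie to the left of their circles, with Syt1, Syt4, Rab3c and Snap91 among those to the right.

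Base composition moved with these values. The transcripts of the 34 tested genes had a median GC content of 52.2%, from 40.7% (Syt4) to 60.1% (Syt3), against 50.2% over all tested genes. All 17 genes above that median were higher in control replicate 8 than in control replicate 9, and 5 of the 17 at or under it were. The 17 GC-richer genes held 7 of the 9 calls, and their median fold change was 1.00, against 0.41 in the others. Across the 34 genes, which share libraries, GC content had a Pearson r of 0.50 and a Spearman rho of 0.54 with the fold change, and 0.80 and 0.73 with the difference between the controls. Without control replicate 9 these were 0.09 and 0.12 for the fold change, and the medians of the GC-richer and GC-poorer genes were 0.73 and 0.42.

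After a GC trend was removed from each library, 19 of the 34 genes rose and none fell (5.83% of all genes called higher, 5.08% lower). All 9 genes called before remained, and Slc17a7, Syt1, Syt2, Syt4, Rab3a, Rab3c, Rims1, Unc13a, Pclo and Snap91 joined them. The medians of the 17 GC-richer and 17 GC-poorer genes were then 0.78 and 0.66. Syt1 had the largest fold change in that fit (1.40, limma adjusted p = 0.00227). With the GC trend removed and control replicate 9 also left out, a choice made after seeing the data, 11 of the 34 rose (3.14% of all genes higher, 3.36% lower): Sv2a, Syt5, Cplx1, Rph3a, Bsn, Dnm1, Syt1, Syt4, Rab3c, Rims1 and Snap91. In that fit Syn1, Syn2 and Syp did not pass (limma adjusted p = 0.0572, 0.0598 and 0.064).

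**Figure D3:**
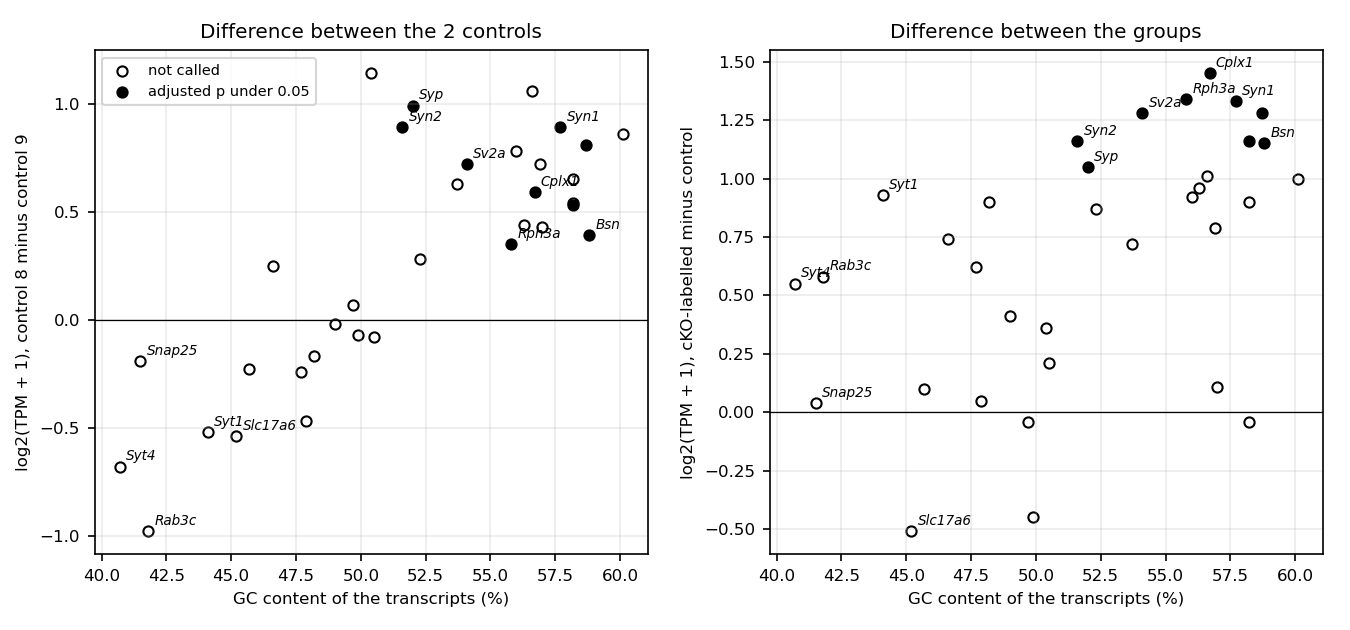
GC content of the transcripts (percent) against the log2(TPM + 1) difference between the 2 controls (left) and between the groups (right), 1 point per tested presynaptic gene, filled where the group difference passed. GC-rich genes such as Syn1 lie above 0 in the left panel and GC-poor genes such as Rab3c and Syt4 below it, while the group difference is above 0 for 30 of the 34 genes.

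Of 22 pan-neuronal markers 4 rose and none fell (median 0.67; 2.90% of all genes were called higher), Mapt and Ina among them with Rtn1 and Crmp1, which were named after their values were seen. The most abundant, Tubb3, a neuronal tubulin, had 5749.8 and 4485.1 TPM against 3147.6 and 1752.5 TPM and did not pass (1.11, limma adjusted p = 0.0954), nor did Uchl1, a neuronal ubiquitin hydrolase (0.80, limma adjusted p = 0.19). Mapt, the microtubule-associated protein tau, had 293.3 and 246.4 TPM against 118.4 and 77.1 TPM (1.48, limma adjusted p = 0.000733). The summed level of the 22 markers was 12092 and 9589 TPM against 6593 and 5113 TPM, and that of the 35 presynaptic genes 1906 and 1742 TPM against 1348 and 1025 TPM. Per unit of the neuronal sum the presynaptic sum was 0.158 and 0.182 under the cKO label against 0.204 and 0.201, but Tubb3 makes up a large part of the neuronal sum. Taken per gene, the median deviation of the presynaptic genes minus that of the neuronal markers (log2) was -0.05 and 0.11 against 0.23 and -0.28, which overlapped between the groups. The 4 neuronal calls were lost without cKO-labelled replicate 4 or 5, with medians of 0.59 and 0.82. They were kept without control 8 or 9, with medians of 0.67 and 0.73, though some markers passed as lower without control 8. After GC removal 11 of the 22 passed as higher (5.83% of all genes). The part of neuronal content in the presynaptic values was not tested.

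Markers of ventral neurons moved too. Among 26 markers of the ganglionic eminences and interneurons 19 rose and none fell (median 1.49; 2.90% of all genes were called higher and 5.24% lower). Most of those calls were lost without cKO-labelled replicate 4 or without control 8, and some without replicate 5 or control 9. The medians were 0.97 and 2.01 without cKO-labelled replicate 4 or 5, and 0.86 and 2.18 without control 8 or 9. After GC removal 8 of the 26 passed as higher and 1 as lower (5.83% and 5.08% of all genes), with 6 of the 19 calls kept. Without a filter on low values 2 were kept (0.0153% of all genes called higher). Their summed level was 1446 and 810 TPM against 281 and 434 TPM, so cKO-labelled replicate 4 was the highest and control replicate 8 the lowest. The part of ventral neurons in the presynaptic values was not tested. Of 18 projection neuron markers none passed in limma (4 with an unadjusted p under 0.05; median -0.12), and of 11 Cajal-Retzius markers none (1 unadjusted; median -0.09). After GC removal 1 projection neuron marker was lower and 1 Cajal-Retzius marker higher (5.08% and 5.83% of all genes), with medians of 0.19 and 0.03. The 2 medians were -0.4 and -0.18 without control 8, and 0.04 and 0.2 without control 9.

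Progenitor lists and the edges of the cortex were read from the same fit. Of 12 intermediate progenitor markers 2 rose, and of 14 radial glia markers 2 fell, with medians of 0.06 and -0.09 (2.90% of all genes were called higher and 5.24% lower). Those calls were lost when cKO-labelled replicate 4 was left out, where the medians were 0.33 and -0.18. With control 8 left out the medians were 0.09 and -0.51. All 21 cortical hem and choroid plexus markers and 14 of 15 meningeal markers fell. The summed levels of the first list were 16.6 and 28.2 TPM against 2268 and 2479 TPM. Genes nearly absent under the cKO label, such as Clic6 (0.28 and 0.02 TPM against 32.8 and 47.0 TPM), passed the filter only through the controls. The filter itself favoured that direction in such genes. With no filter 19 hem and choroid plexus markers and 9 meningeal markers were lower (0.666% of all genes). With a minimum of 5 TPM 15 of 15 and 7 of 8 tested were lower (2.90% of all genes). Fewer passed without cKO-labelled replicate 4, where the medians of the lists were -3.48 and -3.01. Of 13 microglia and macrophage markers 3 fell, of 10 endothelial markers 2, and of 2 tested peripheral neuron markers 1, with none higher. Of 13 genes listed as thalamic and diencephalic markers 7 were tested, and 2 fell (Lhx2 and Zic4), with none higher. Lhx2 had 160.9 and 190.4 TPM against 377.5 and 368.8 TPM, and the part of thalamic tissue cannot be read from these 2 genes. With all 4 libraries the medians of the microglia, endothelial and thalamic markers were -0.77, -0.52 and -0.31. Fewer of these markers passed without cKO-labelled replicate 4, where the medians were -0.3, -0.75 and -0.58. Without control replicate 9 the medians were -1.11, -0.71 and -0.18. The part of these tissues in the presynaptic values was not tested.

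**Figure D4:**
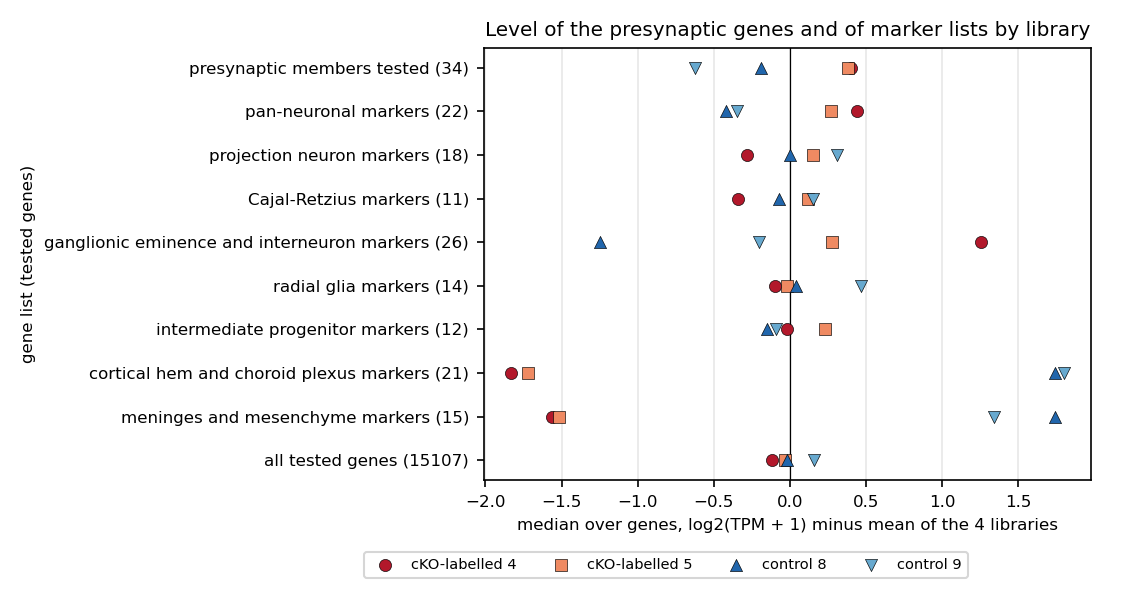
Median over the tested genes of each list of log2(TPM + 1) minus the gene's mean over the 4 libraries, 1 point per library, with the number of genes in brackets. The presynaptic genes stand at 0.40 and 0.38 in the cKO-labelled libraries and at -0.19 and -0.62 in controls, and the pan-neuronal markers show the same order of groups, while projection neuron markers overlap.

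Of 131 tested further genes of the vesicle cycle 10 rose and 2 fell (7.63% and 1.53%, where 2.90% and 5.24% of all genes were called; median 0.19). The counts were 26 and 3 after GC removal (5.83% and 5.08% of all genes). Quantile normalization gave 16 and 2 (4.73% and 3.54% of all genes), as did median-of-ratios scaling (5.11% and 4.61%). With no filter on low values they were 0 and 1 (0.0153% and 0.666%). Each library was also left out in turn. Dropping control 8 put the median fold change of the 131 genes at 0.13, and dropping control 9 at 0.19. Dropping cKO-labelled replicate 4 put it at 0.22, and dropping replicate 5 at 0.19. Among SNARE partners and other SNAREs (26 tested) Doc2b, a calcium sensor of spontaneous release, rose by 1.36 (limma adjusted p = 0.0082), from 3.88 and 1.78 TPM in the controls. Cadps, a priming factor of dense-core vesicles, fell, at 8.18 and 8.40 TPM against 15.2 and 29.2 TPM (-1.25, limma adjusted p = 0.0206). Without control replicate 9 these were at 0.95 and -0.80, both uncalled. The most abundant of that list, Snap47 and Napa, did not pass (0.50 and 0.43). None of 11 other tested synaptotagmins passed in limma, 2 had an unadjusted p under 0.05, and Syt9 and Esyt2, the most abundant of them, were at -0.06 and -0.67.

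Among 27 other vesicle proteins 3 rose and 1 fell (11.1% and 3.7%, where 2.90% and 5.24% of all genes were called). Slc32a1, the vesicular GABA transporter of inhibitory neurons and also a member of the ventral marker list, had 40.4 and 24.98 TPM against 3.50 and 6.23 TPM (2.52, limma adjusted p = 8.68e-09; 2.19 without cKO-labelled replicate 4, limma adjusted p = 0.102). Sncb, beta-synuclein, rose by 1.83 (1.19 without control replicate 9), and Syngr3, synaptogyrin 3, by 1.23. Slc17a8 (VGLUT3) was the gene called lower, at 0.04 and 0.10 TPM against 1.58 and 2.39 TPM. It rested on 2 and 5 reads against 95 and 125 reads. It passed the filter of 1 TPM only through the controls, so the filter itself favoured that direction, and with a minimum of 5 TPM it was not tested. The abundant proton pump subunits Atp6v0c and Atp6v0d1 stood at 0.57 and 0.76, both uncalled.

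Among 38 other active zone genes 4 rose (10.5%, where 2.90% of all genes were called higher). They were Nrxn2 and Nrxn3, presynaptic adhesion receptors, Rims4, a short RIM protein, and Cacna1b, the N-type calcium channel. Cacna1b was named after its values were seen. Nrxn2 rose by 1.33 and Rims4 by 1.28. Nrxn3 had 9.67 and 7.69 TPM against 1.12 and 4.88 TPM (1.45, limma adjusted p = 0.00394), and it was at 0.71 without control replicate 8 (limma adjusted p = 0.0826) and at 2.18 without control replicate 9. Ptprs and Apba2, the most abundant, stood at 0.08 and 0.09. Without control replicate 9 Rims4 was at 0.88 (limma adjusted p = 0.119), uncalled. Of 29 other endocytosis genes 1 rose (3.45%, close to the 2.90% of all genes called higher). It was Pacsin1, the neuronal syndapin that binds dynamin, at 10.0 and 9.17 TPM against 3.70 and 3.14 TPM (1.26, limma adjusted p = 0.0189). Its fold change was 1.17 without control replicate 9. The chaperone Hspa8 and the adaptor subunit Ap2s1, the most abundant of that list, were at -0.48 and 0.50. Among these lists' 12 calls leaving out cKO-labelled replicate 4 kept none and replicate 5 kept 2, while leaving out control 8 kept 11 and control 9 kept 6.

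Some genes have an annotated transcript of the class that NMD degrades. GENCODE M21 lists such a transcript for 6 of them (17.1%), Sv2b, Slc17a6, Stx1a, Syt7, Unc13a and Dnm1, against 28.0% of 12688 tested protein-coding genes. Of these 6 only Dnm1 passed, and the deposited values are per gene, so the share of any transcript could not be read.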

How the data were processed

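RNA-seq of 4 libraries (2 per group) was deposited as 1 table. The authors deposited TPM values for 40630 genes, each column summing to 1000000; STAR and mm10 are named in the submitters' processing notes, while the counter, strand setting, annotation release and TPM tool used by the submitters are not stated there or elsewhere in the labels. Per the labels' protocols, RNA of RIN 9.0 or more entered a stranded total RNA kit. Gene IDs matched GENCODE M21 (GRCm38) with version for 99.1%, and 27 date-like symbols were restored from IDs. Reads were recovered from TPM times M21 exon length, which came out whole, within 0.05 reads, for 100.0% of values above 0; GC content is over all M21 transcripts of a gene.

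Genes with a mean of at least 1 TPM were tested on log2(TPM + 1) with limma 3.58.1 (R 4.3.3; intensity trend, two-sided, Benjamini-Hochberg over all 15107 genes, called under 0.05). The fit was tested on simulated data with known changes. The simulated libraries had no GC trend and no library that stood apart, so this checks the code and not the calls made here. The 14 alternatives changed 1 choice at a time, the last one 2: a pseudocount of 0.1 or 0.5, no minimum or a minimum of 5 TPM, median-of-ratios scaling, quantile normalization, loess removal of a GC trend (span 0.5), no intensity trend, robust moderation, each library left out, and GC removal without control replicate 9. The 35 genes and all lists were chosen with earlier results of these data known. All 35 are named; from pathway lists the 3 called genes of smallest p in each direction and the 2 most abundant were eligible, and from marker lists the 2 most abundant and the 2 of smallest p, of which those that bear on the results are printed; 1 eligible gene is not reported here. Pathway lists overlap with no member of the 35. Sequences are from RefSeq (GRCm38.p6). Figures were drawn with matplotlib 3.10.9.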

Additional observations from a re-analysis of the deposited data

How the results depend on the processing

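The number of presynaptic genes called higher was 9 with pseudocounts of 0.1 and 0.5, a minimum of 5 TPM, no intensity trend and robust moderation. Median-of-ratios scaling gave 17, quantile normalization 14 and GC removal 19. Without a filter limma called 0 of the 35 genes (18 with an unadjusted p under 0.05) among 26133 genes tested. Leaving out 1 library gave 0 to 20 called higher and 0 to 1 called lower. The median fold change of the genes ranged from 0.57 to 0.97 in those fits and was 0.59 with GC removal and control replicate 9 left out. Among the 472 fold changes of single genes under the alternatives 17 had the opposite sign, none of a called gene. With 1 library left out Sv2b ranged from -0.02 to 0.22, Snap25 from -0.06 to 0.13, Syt7 from -0.31 to 0.23, Rab3b from -0.21 to 0.92, Rims2 from -0.19 to 0.28 and Bin1 from -0.10 to 0.32. After median-of-ratios scaling Syt7 was at 0.12 and Syt11 at 0.13, and after quantile normalization Syt7 was at 0.03. After GC removal Syt11 was at 0.16 and Bin1 at -0.15, and with control replicate 9 also left out Syt11 was at 0.01, Rab3b at -0.14 and Bin1 at -0.09. The cause was not tested. No paired analysis was possible because the groups share no replicate number. With 2 libraries a group, an exact permutation test cannot go below p = 0.333.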
